A study of Mus musculus with 2 samples.

Results

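Processed pseudogenes were described in long-read RNA-seq libraries of mouse heart. A gene was taken as a member when GENCODE M21 gives it the type processed_pseudogene, when its reads were assigned to that annotated gene, and when at least 1 read was counted for it in each of the 2 libraries. The rule was met by 239 of 9941 annotated processed pseudogenes, among 15848 annotated genes with a read in either library and 12561 with a read in both. The members were thus chosen by their read counts, which are given as a description. Both libraries are of 1 group, heart tissue of female B6CASTF1/J mice (the first-generation cross of C57BL/6J and CAST/EiJ) aged 2 months, with no treatment named and 2 µg of total RNA each. The labels number the animals differently in the sample text but give both libraries 1 donor and 1 library text, so separate animals are not settled, and p-values compare these libraries only. Intervals on reads cover counting error within them, while those on the share of copies detected count copies, not reads. The tissue was bulk heart, in which fewer cells of a type and less RNA per cell cannot be told apart.

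A processed pseudogene is a copy of a spliced messenger RNA that was reverse transcribed and inserted elsewhere in the genome by the enzymes of LINE-1 elements. It lacks the introns of its parent gene, usually lacks the parent's promoter, and collects mutations that break the reading frame as it ages. Parents are often short messenger RNAs of high abundance in the germ line, such as those of ribosomal proteins and Gapdh.

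The libraries held 905154 reads in replicate 1 and 745375 in replicate 2, of which 859191 and 707758 were on annotated genes. A single read equals 1.16 and 1.41 CPM, counts scaled to the annotated-gene reads of the library, and 3 reads, the limit that a count of 0 allows, equal 3.49 and 4.24 CPM. The heart muscle gene Myh6, the alpha myosin heavy chain, had 26157 and 24642 reads, and Tnnt2, Tnni3, Actc1 and Ttn each had at least 108 reads in each library. Endothelial (Pecam1, Cdh5), fibroblast (Col1a1, Dcn) and red cell (Hba-a1, Hbb-bs) genes were also read in both. The white cell gene Ptprc had 0 and 3 reads, the fat gene Adipoq had 10 and 2, and the lung gene Sftpc had 0 in both.

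The sequences below show how little separates these pseudogenes from their parents in the reference. Identities and base differences throughout are those of the reference, and CAST/EiJ alleles of these mice were not compared. All are 40-base windows of the coding region from the GENCODE M21 transcript sequences, read 5′ to 3′ along the transcript, with mm10 coordinates, and coding positions are counted from 1 at the A of the parent's start codon. In the first pair, capitals mark the bases on either side of the junction of exons 3 and 4 of Gapdh, the glycolytic enzyme glyceraldehyde-3-phosphate dehydrogenase. Gm12671 carries that junction without an intron in chr4:91852329-91852368 on the minus strand, while the same bases of Gapdh spread over chr6:125163021-125163158 on the minus strand.
Gm12671: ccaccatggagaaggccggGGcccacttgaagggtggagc
Gapdh: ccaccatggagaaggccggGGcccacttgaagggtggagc

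In the other pairs, capitals mark the bases that differ. Gm12033 (chr11:20335491-20335530, minus strand) has T504C against Gapdh (chr6:125162705-125162878, minus strand), and Gm5559 (chr5:95862078-95862117, plus strand) has T385A against Gapdh (chr6:125162958-125162997). Each is the only base difference in 999 coding bases.
Gm12033: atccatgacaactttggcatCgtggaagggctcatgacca
Gapdh: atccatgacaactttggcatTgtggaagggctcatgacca
Gm5559: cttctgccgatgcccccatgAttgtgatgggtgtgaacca
Gapdh: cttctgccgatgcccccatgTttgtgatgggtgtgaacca

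Gm15459, the member with most reads, has G114A and 5 base differences in all from the chaperone gene Hspa8. Its window is chr5:5783423-5783462 on the minus strand, beside chr9:40802016-40802055 on the plus strand for Hspa8. Rps2-ps13 (chrX:52899011-52899050, plus strand) has C444T and C453A against Rps2 (chr17:24721017-24721056, plus strand).
Gm15459: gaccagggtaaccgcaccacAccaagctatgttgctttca
Hspa8: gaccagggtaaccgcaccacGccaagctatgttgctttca
Rps2-ps13: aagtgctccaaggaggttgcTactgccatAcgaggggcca
Rps2: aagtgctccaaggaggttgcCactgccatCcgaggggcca

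Gm7389 (chr8:3996970-3997009, plus strand), a copy of the transfer RNA exportin gene Xpot (chr10:121602315-121602354, minus strand), was chosen after its values were seen as a more diverged case. Its window has C2339T, A2347G, C2349T, C2361A and G2368T, and the aligned coding sequence has 65 base differences and 7 gaps.
Gm7389: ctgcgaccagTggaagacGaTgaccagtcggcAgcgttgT
Xpot: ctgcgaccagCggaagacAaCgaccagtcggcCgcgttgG

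A parent gene was found for 234 of the 239 members, from the symbol (a name ending in -ps after the symbol of a coding gene) for 64 and from the best alignment to a protein-coding transcript for 170. Of the 64 named by symbol, 62 had the same gene as best alignment. The 234 members came from 173 parents, 137 of which had 1 member and 36 of which had more. For 7 members several genes tied as best match. For 3 members the best match was itself a gene without introns: Gm10259 matched Gm10184, Gm10108 matched Gm10053, and Gm17241 matched Rps27rt, while the best spliced matches were Kpna2, Cycs and Rps27, at 99.8%, 99.4% and 99.2% identity.

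Most members were close to their parents in sequence, but not all. Their median identity to the parent was 99.5% (quartiles 98.7% and 99.8%), beside 91.1% for all 7744 annotated processed pseudogenes with an aligned parent. At least 99% identity was found in 161 members (68.8%), beside 6.87% of all, and 47 members were 100% identical over the alignment. The longest open reading frame was the longest run from an ATG in any forward frame, which need not be the parent's frame. It reached at least 90% of the parent's protein length in 161 members (68.8%), beside 14.1% of all. The parent's length is that of its best-aligned transcript, which can be a short isoform, as for Mpc1-ps at 85 residues. At the other end, 23 members were under 95% identical and 34 had a reading frame under 50% of the parent's protein length. A frame under 50% need not be a broken one, since some copies align to a small part of the parent's coding sequence. Gm6863 had 1 base difference and no gap over 576 of 6561 coding bases of Naca. Gm1943 had no difference over 174 of 1971 coding bases of Wdr70. Over the parents' coding sequence the median was 2 base differences, 143 members covered it from end to end, and 37 of those had no difference. Of 1058 parental exon junctions within the aligned ranges, 1044 (98.7%) were joined in the copy without a gap. The median length of the members was 490 bases, beside 526 for all annotated processed pseudogenes.

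Detection in both libraries followed identity closely. It was 30.3% (161 of 532, Wilson 95% interval 26.5 to 34.3%) at 99% identity or more, 4.40% (37 of 840) from 97 to 99%, 1.42% (13 of 914) from 95 to 97%, and 0.569% (12 of 2108) from 90 to 95%. Below 85% it was 0.277% (4 of 1442). The median level of the parents in the bins of identity ran from 49.4 to 60.6 CPM. Among the pseudogenes at least 98% identical, detection also went with the parent's reads: 0 of 110 whose parent was under 1 CPM, 18.8% (74 of 393) at 10 to 100 CPM, and 57.1% (12 of 21) at 1000 CPM or more. Nearly identical copies can exchange reads, how the authors' alignment settled such reads is not given in the sources used here, and the part of this in the members' counts was not tested.

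**Figure D1:**
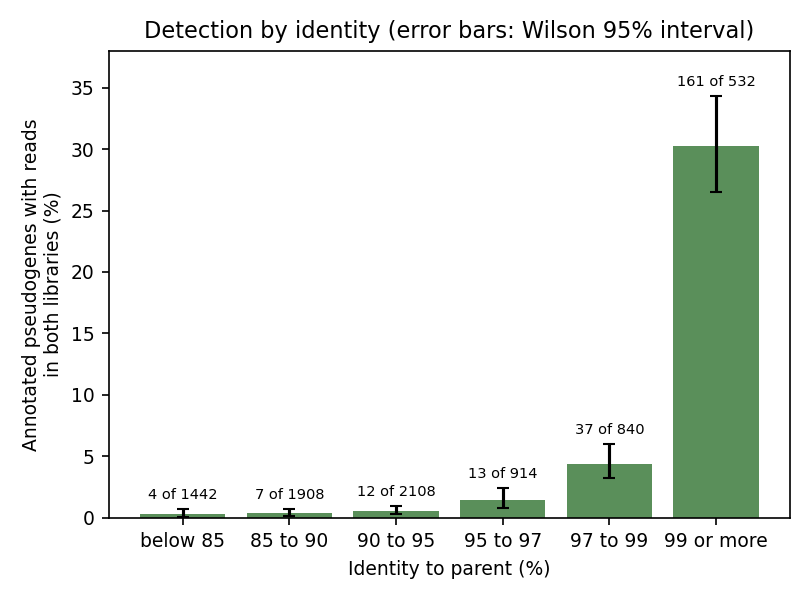
Share of annotated processed pseudogenes with reads in both libraries (y axis, percent) by identity to the parent (x axis, percent). Bars are shares, and numbers above them are members and annotated copies. Error bars are Wilson 95% intervals that take each annotated copy as a separate trial, although copies can share a parent. The bar at 99% or more stands at 30.3% and the others at 4.40% or less.

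The members together took 9785 reads in replicate 1 and 6903 in replicate 2, or 1.14% (Wilson 95% interval 1.12 to 1.16%) and 0.975% (0.953 to 0.998%) of annotated-gene reads. Reads were concentrated in few of them. The median member had 9 reads over both libraries (quartiles 4 and 47), 28 members stood at the edge of the rule with 1 read in each library, and 38 had 100 or more. Just outside the rule, 214 processed pseudogenes had reads in 1 library only, 171 of them with 1 read and the highest with 11. The 10 members with most reads, ranked in each library by itself and so not all the same, took 52.3% and 51.7% of the members' reads. Gm15459 alone took 16.9% and 14.4%.

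Nearly all member reads were on annotated models, which for these intronless copies have 1 exon, so the model class does not show whether the RNA read had been spliced. Models of GENCODE took 99.5% and 99.4% of member reads, and single-exon models took 99.6% and 99.4%, leaving 41 and 39 reads on models with several exons. Models with several exons took 96.4% and 96.6% of the parents' 53975 and 40628 reads. Of 99 members with at least 5 reads in each library, 92 had every read on the annotated model, a tie that left none to rank.

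The copies of ribosomal protein genes were the largest group by number, with 92 members of 1931 annotated, 55 parents, and 26.3% and 25.9% of member reads. The copies of respiratory chain and ATP synthase genes, grouped by parent symbol, numbered 14 of 186 and took 13.9% and 14.7%. The symbols used leave out Usmg5, so its copy Gm14539, with 546 and 401 reads, is not in these shares. Also left out are the 21 annotated copies assigned to the intronless Gm10053. Its 1 member, Gm10108, with 7 and 2 reads, has Cycs, a gene among the symbols used, as best spliced match. The copies of glycolytic genes numbered 15 of 285 and took 13.4% and 16.3%, and 12 of these were copies of Gapdh. Only 5 members copied chaperones or cyclophilins, but they took 19.1% and 16.3% through Gm15459. Copies of chromatin protein genes, with 340 annotated, gave 4 members and 19 and 7 reads.

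Gm15459 (chr5:5781615-5783555, minus strand, 1941 bases) had 1658 reads in replicate 1 and 991 in replicate 2, a mean of 1665 ± 374 CPM (SD, n = 2). Its parent Hspa8, the constitutive cytosolic Hsp70 chaperone, had 1597 and 1075. The pseudogene thus took 50.9% (49.2 to 52.7%) and 48.0% (45.8 to 50.1%) of the pair's reads. The copy lies opposite the lincRNA gene Gm26825, which had no read in either library.

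Copies of mitochondrial genes followed. Gm12338, a copy of Cox7c (a subunit of cytochrome c oxidase) opposite Pitpna on chromosome 11, had 722 and 490 reads beside 1538 and 1026 at the parent. Gm14539, a copy of the ATP synthase membrane gene Usmg5, had 546 and 401 beside 1382 and 918. Mpc1-ps, a copy of the mitochondrial pyruvate carrier gene Mpc1 that lies opposite Zfp839, had 421 and 350 beside 403 and 349. None of these 3 copies showed a base difference within the aligned coding sequence. Gm12338 and Gm14539 had fewer reads than the parent, while Mpc1-ps and Mpc1 were close to equal in both libraries. That balance rests on added models of Mpc1. On annotated models only, Mpc1 had 3 and 5 reads, and Mpc1-ps took 99.3% and 98.6% of the pair's reads. Gm10231, a copy of the ATP synthase c-subunit gene Atp5g2, had 195 and 177 reads beside 275 and 226. This order also rests on added models of the parent. On annotated models only, Atp5g2 had 112 and 70 reads, and Gm10231 took 63.5% and 71.7% of the pair's reads. BC002163, a copy of the complex I gene Ndufs5, had 139 and 90 beside 160 and 127, and Gm10221, a copy of the ATP synthase subunit gene Atp5l, had 140 and 76 beside 758 and 528.

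Among the ribosomal copies, Gm14303 had 346 and 213 reads beside 433 and 250 at Rps29. Gm8172 had 172 and 129 beside 174 and 110 at Rps6, and Rps19-ps6 had 175 and 113 beside 164 and 132 at Rps19. These pairs were near balance, whereas Rps2-ps13, with 151 and 131 reads, exceeded Rps2 at 97 and 66 in both libraries (60.9% and 66.5% of the pair's reads). Of the remaining high members, Gm10123 had 151 and 102 reads beside 167 and 118 at Ppia, the gene of cyclophilin A. Vcp-rs had 128 and 70 beside 480 and 392 at Vcp, the gene of an ATPase that extracts proteins for degradation.

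**Figure D2:**
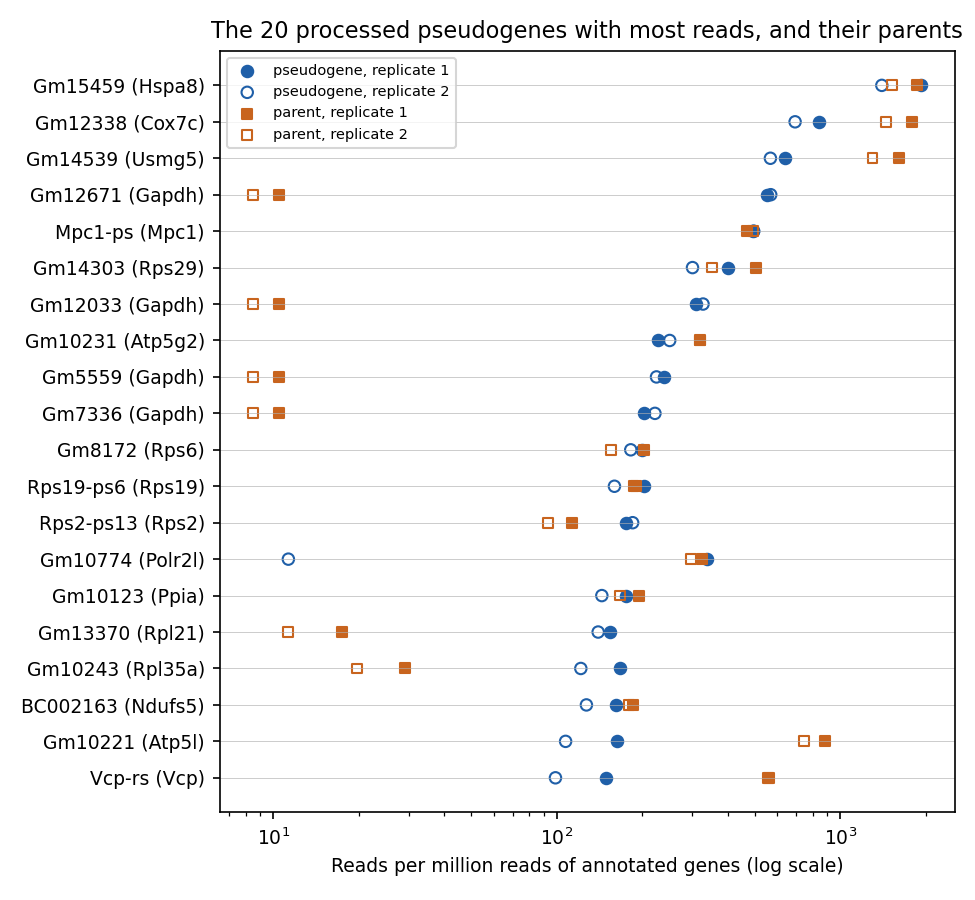
CPM on the reads of annotated genes (x axis, log scale) of the 20 members with most reads and of their parents in brackets; circles are pseudogenes and squares are parents, filled for replicate 1 and open for replicate 2. The Gapdh, Rpl21 and Rpl35a copies lie far to the right of their parents, and Gm10774 is split between the libraries at 338 and 11.3.

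For most pairs the parent had more reads. Across the 234 pairs the median share of the pseudogene was 7.62% (quartiles 2.41% and 28.7%; 7.99% and 8.20% in each library by itself), and 24.97% over the 116 members with at least 10 reads. That minimum is on the pseudogene's own reads, which also enter the share, so the higher value cannot be told apart from the choice of members. The parent had more reads for 213 pairs, and the share was under 5% for 96. The pseudogene had over 50% of the pair's reads in both libraries for 20 members. Shares repeated across libraries (Spearman's rho 0.928 over 234 members, which share parents and libraries), with a median absolute difference of 3.12 percentage points over those 116 members. Member and parent levels were hardly related across members (rho 0.0790, n = 234, the same libraries). Both rho values are over copies chosen by their own reads and leave out copies without a read in each library. They do not describe how detection went with the parent's reads, which is given above.

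The largest shares belonged to a few parents. Gapdh itself had 9 and 6 reads, while its 12 member copies, of 205 annotated, had 1219 and 1040. The copies took 99.3% (98.6 to 99.6%) and 99.4% (98.8 to 99.7%) of the sum. Gm12671 had 472 and 402 reads, Gm12033 266 and 232, Gm5559 205 and 159, Gm7336 175 and 157, and Gm13394 67 and 57, each above the parent in both libraries. The other 7 had from 1 to 8 reads in a library. These 12 are between 99.1% and 100% identical to Gapdh, and Gm12671 and Gm10359 both have 100%, with Gm10359 at 6 and 6 reads. One of them, Gapdh-ps15 (chrY:38619783-38620784, plus strand), had 3 and 5 reads although the labels give female mice. It was the only gene of 1570 annotated on the Y chromosome with reads in both libraries, and the single other one with a read was an unprocessed pseudogene with 1 read in replicate 1.

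Rpl21, Rpl35a and Rpl17, genes of the large ribosomal subunit, showed the same order. The 4 copies of Rpl21 had 221 and 169 reads beside 15 and 8, with Gm13370 at 132 and 99 and Rpl21-ps15 at 67 and 56. The 6 copies of Rpl35a had 200 and 115 reads beside 25 and 14, with Gm10243 at 144 and 86. The 3 copies of Rpl17 had 53 and 43 beside 4 and 0, with Rpl17-ps5 at 40 and 33. Gm10259 had 68 and 48 reads beside 2 and 0 at the intronless Gm10184, but its best spliced match Kpna2, an importin, had 51 and 39. Rpl7a, with 167 annotated copies and 4 members, was nearer to balance, with 26 and 19 reads beside 30 and 23 on the members.

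**Figure D3:**
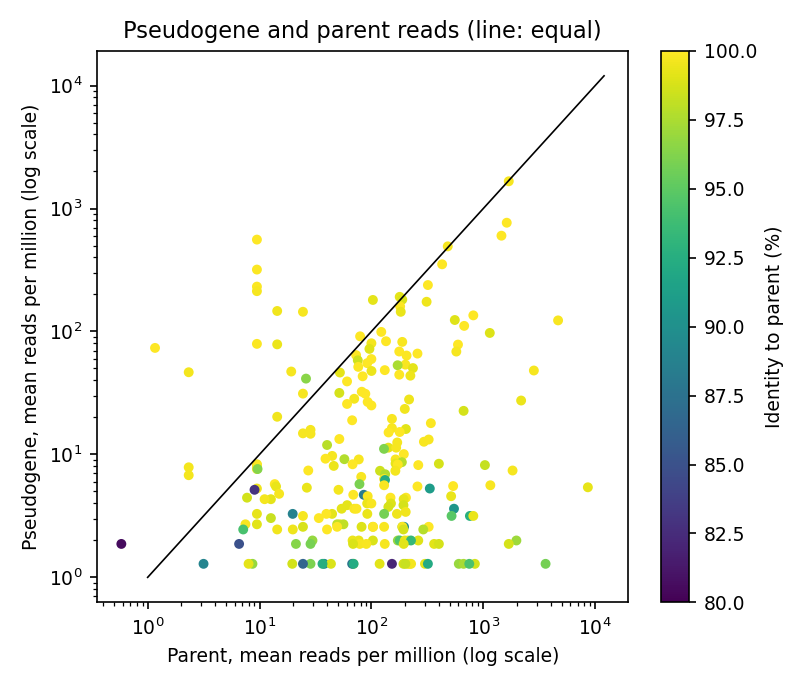
Mean CPM of each of 234 members (y axis, log scale) against its parent (x axis, log scale), coloured by identity to the parent in percent; the line marks equal reads. The 213 points below the line are members with fewer reads than their parent, and the Gapdh copies form a column of points at a parent mean of 9.48.

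By position, 143 members (59.8%) overlapped no other annotated gene, beside 70.9% of all annotated processed pseudogenes. Another 65 (27.2%, beside 17.6%) lay on the opposite strand of a gene only, 25 (10.5%, beside 10.2%) in an intron of a gene on the same strand, and 6 (2.51%, beside 1.23%) over an exon of one. On the same chromosome as the parent were 14 of 234. The 65 on the opposite strand took 37.8% and 36.4% of member reads, and the 25 in same-strand introns took 10.4% and 9.68%.

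Inside a same-strand intron, Rps19-ps6 (chr12:110898114-110898551, plus strand) lies in Tecpr2, which had 4 and 3 reads against 175 and 113. Gm13370 (chr2:24985984-24986466, plus strand) lies in Pnpla7 at 42 and 40 reads. BC002163 lies in Zbtb20 at 53 and 42, and Gm10243 in Zfp862-ps at 1 and 2. These 4 had more reads than their host in each library, and 16 of the 25 intronic members did so over both libraries together. On the opposite strand, Gm15459, Gm12338, Mpc1-ps, Gm8172 and Gm12481 had most reads. Their hosts Gm26825, Pitpna, Zfp839, Aff2 and Fam221b had 0, 114, 10, 1 and 0 reads in replicate 1. Gm12481, a copy of Serf2, had 107 and 69 reads beside 608 and 454 at its parent.

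Models that the authors' software added to the annotation often began where a member's annotation stopped. Added models of other genes had 38 distinct places with an exon over a member on its strand, 6 of them listed in both libraries. Of these, 37 shared exactly 1 base with the member, and 34 of these touched its 3′ end. Those at the 3′ end touched 31 members, 24 in replicate 1 with 375 reads and 16 in replicate 2 with 344 reads, and 9 of the members in both. Oaz1-ps, named after its values were seen, had one of 94 and 59 reads counted under a lincRNA gene beside 3 and 8 reads of its own. Reads of these models were not counted for the pseudogene.

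Between the libraries, levels of the 239 members were related with rho 0.852, over members that share the libraries. The rule needs a read in each library and leaves out the 214 copies read in 1 only, so this rho is a description. Of 9334 annotated genes with at least 10 reads, 0.321% were called, meaning that a two-sided exact binomial test against the library totals gave an adjusted p below 0.05 (Benjamini-Hochberg over those genes) and a difference of at least 2-fold. Of the 116 members tested, 3 were called, 2 lower in replicate 2 (0.171% of all tested genes) and 1 higher (0.15%). The test compares these libraries, not conditions.

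Gm10774 (chr2:126709354-126709557, minus strand), a copy of the RNA polymerase subunit gene Polr2l, had 290 reads in replicate 1 and 8 in replicate 2, while Polr2l had 280 and 210. It was 29.9-fold lower in replicate 2 (95% interval 15.0 to 69.8, exact binomial test, adjusted p = 8.6e-60). The pseudogene lies in the last exon of Usp50, a ubiquitin peptidase gene, which had 3 and 173 reads. Of those in replicate 2, 172 were on an added model of 259 bases that shares 1 base with the pseudogene at its 3′ end, chr2:126709096-126709354, and replicate 1 listed no such model.

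Gm6969 (chr12:24638669-24639010, minus strand), a copy of Cox7a2l, had 16 and 62 reads, 4.70-fold higher in replicate 2 (2.68 to 8.73, exact binomial test, adjusted p = 2.7e-07). An added model of 667 bases that touches it by 1 base, chr12:24638003-24638669, had 119 reads in replicate 1 and was not listed in replicate 2. Nudc-ps1, a copy of the dynein-related gene Nudc, had 24 and 3 reads, 6.59-fold lower in replicate 2 (2.00 to 34.2, exact binomial test, adjusted p = 0.030), and no other model touched it. With an edgeR exact test at a preset variation of 0.2, the calls of Gm6969 (adjusted p = 0.12) and Nudc-ps1 (adjusted p = 1) were lost, and that of Nudc-ps1 was also lost without the read minimum (exact binomial test, adjusted p = 0.051).

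With the reads of touching models added, an alternative chosen after seeing the data, Gm10774 stood at 290 and 180 reads (1.33-fold lower in replicate 2, exact binomial test, adjusted p = 0.15). Gm6969 stood at 135 and 62, now 1.79-fold lower in replicate 2 and under the 2-fold limit. Got2-ps1, at 1 and 1 reads by itself, then became 1 and 36 and was called, and Nudc-ps1 stayed called.

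**Figure D4:**
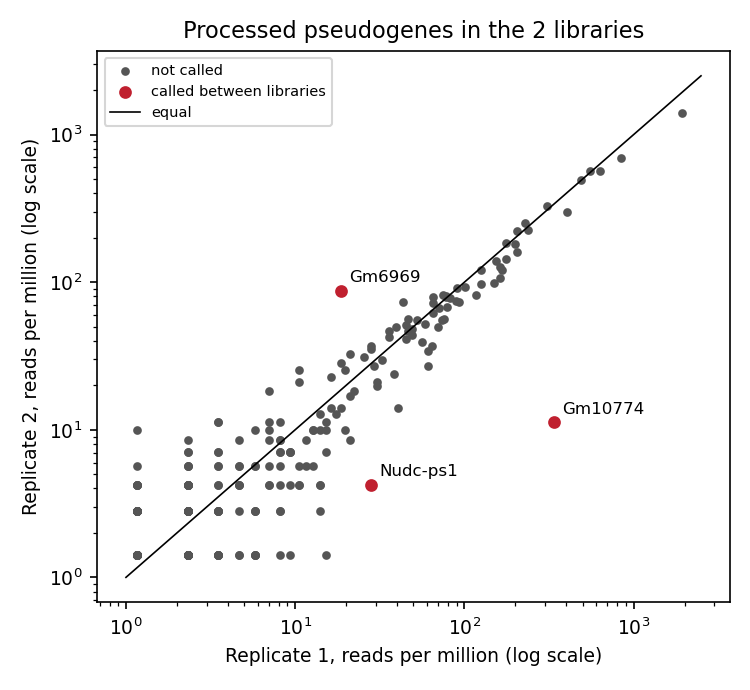
CPM of the 239 members in replicate 1 (x axis, log scale) and replicate 2 (y axis, log scale); the line marks equal levels and red points are members called between the libraries. Gm10774 and Nudc-ps1 lie below the line and Gm6969 above it, and the rows and columns of points at lower left are members with a few reads.

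A small shift towards replicate 1 ran through the members. The median log2 ratio of replicate 2 to replicate 1 was -0.17 over the 116 tested members and 0.05 over all tested genes, and 75 of the 116 were lower in replicate 2, beside 45.4% of all. The ratio of other genes rose with the length of the read models. Under 500 bases it was -0.28 for 58 members and -0.21 for 144 other genes, at 500 to 1000 bases it was -0.16 for 36 members and -0.17 for 700 other genes, and at 1000 to 2000 bases it was -0.05 for 20 members and -0.01 for 2423 other genes. At 2000 to 4000 bases it was -0.11 for 2 members and 0.10 for 4515 other genes. The part of length in the members' shift was not tested. The parents of the members had a median of -0.15 over 169 tested, and none of the 169 was called. Gm15459, at 1.38-fold lower in replicate 2 (1.27 to 1.49), passed the adjusted p but not the 2-fold limit. Without that limit 4 members passed, beside 1.15% of all tested genes.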

How the data were processed

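The authors deposited 1 table per library of read counts, 1 row per transcript model, made on mm10 with GENCODE models and models added by TALON, per the file headers and the labels. The aligner, versions and filters are not given in the sources used here. Counts of all models of an annotated gene were summed, spike-ins and unannotated genes were left out, and CPM used the annotated-gene total. A read minimum of 1 in each library defined members. Parents came from the symbol stem or from blastn 2.17.0 (at least 80% identity over 50% of the pseudogene), leaving out overlapping genes. Genes with 10 reads or more entered a two-sided exact binomial test conditional on the gene's total, in scipy 1.17.1, since 1 group of 2 libraries leaves no residual degrees of freedom for a fitted model; log2 ratios had 0.5 reads added. Scripts were tested on simulated data with counting error only, which cannot show how the test behaves where libraries also vary otherwise. Reads carry no molecular identifiers, so intervals on reads cover counting error only.

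Named were the 20 members of highest mean CPM, members called, the 10 with the highest share of pair reads among those with 10 reads, the 5 highest in same-strand introns and the 5 highest opposite a gene, and their parents; 1 host gene of an intronic member is not reported here. Members and lists were chosen with earlier results of these data known. Alternatives covered scaling (edgeR's TMM, DESeq2), read minimums, annotated models only, an edgeR exact test with a preset variation of 0.2, identity and each library alone.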

Additional observations from a re-analysis of the deposited data

How the results depend on the processing

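Of 29 alternatives, 17 stayed within the main result's spread or within 1.5 times its count. For members called, that tally compares counts, not which members they were. With the reads of touching models added, an alternative chosen after seeing the data, 2 members were called instead of 3, which the tally takes as unchanged. The calls of Gm10774 and Gm6969 were then lost and Got2-ps1 was newly called. Gm6969 turned from higher to lower in replicate 2. A minimum of 5 reads in each library left 99 members, and a single library gave 338 to 354. The share of reads on members was 1.39% on annotated models only and 0.913% without the copies of Gapdh, an alternative chosen after seeing the data, and 0.975% to 1.14% leaving out either library. The edgeR exact test with a preset variation of 0.2 called 1 member, Gm10774. Over the alternatives that rescale or filter, the adjusted p of Nudc-ps1 ran from 0.013 to 1 and that of Gm6969 from 2.1e-07 to 0.12 (exact binomial or edgeR exact test). The symbol stem by itself gave parents for 64 members. The median share of pair reads was 8.34% on annotated models and 7.99% to 8.20% leaving out either library. It was 24.97% over members with at least 10 reads, a minimum on reads that also enter the share. Of the 31 members in or across a gene on their strand, 6 were over an exon and 20 had such a gene read in each library. The median member had 100% of its reads on annotated models, beside 99.5% of all member reads. No paired analysis was possible because there is 1 group. Depth limits the members under 10 reads, 123 of 239, for which no test was made.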
